A study of Mus musculus with 2 samples.

Results

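The genes described here are the GDNF family: the 4 secreted ligands Gdnf, Nrtn (neurturin), Artn (artemin) and Pspn (persephin), the 4 GPI-anchored coreceptors Gfra1 to Gfra4, and the receptor tyrosine kinase Ret. These 9 genes were chosen by name rather than by a threshold on a measured value, although with earlier results of these data known, out of 43346 genes in the tables, of which 21474 are annotated as protein-coding. They were read in total RNA-seq of whole intestine from mouse embryos of strain B6NCrl at 14.5 days of development, with no treatment or genetic change in the labels. The series has 2 libraries, replicate 1 and replicate 2, each made from 10 ng of RNA over 200 nucleotides long, and they form 1 group, so no contrast between conditions exists and no test was made. Each library is labelled as 1 intestine, and both carry the same pup and dam numbers and the same donor record, with collection dates of day 17 for replicate 1 and day 15 for replicate 2. Embryo, sex, date and library therefore cannot be told apart, and the spread between the libraries holds all of them.

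A dimer of a GDNF family ligand binds its preferred coreceptor, and the pair then brings Ret molecules together so that they phosphorylate each other on tyrosines. The preferred pairs are Gdnf with Gfra1, Nrtn with Gfra2, Artn with Gfra3 and Pspn with Gfra4. In the gut, Gdnf made by the mesenchyme acts on Ret and Gfra1 of the migrating neural crest cells that form the enteric nervous system, and loss of any of these 3 genes leaves most of the bowel without neurons.

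Some properties of the libraries touch the values below. The labels give the sex as pooled, but Xist, the RNA of the inactive X chromosome, stood at 77.2 TPM in replicate 1 against 0.06 in replicate 2, and the Y-linked Ddx3y at 0 against 28.2, so by these genes the libraries differ in sex. TPM is transcript abundance per unit of transcript length, as a share of all transcripts in a library, so it can be compared between genes. Pancreas markers were higher in replicate 2 for 10 of 10 genes, with a summed level of 4.51 TPM in replicate 1 and 1039.3 TPM in replicate 2, and Ctrb1, Ptf1a, Ins1 and Ins2 were at 0 in replicate 1. Enteric neuron markers were detected for 10 of 10 genes, smooth muscle and mesenchyme markers for 8 of 8, epithelium markers for 6 of 6, and glia and crest markers for 6 of 8, with S100b and Gfap under the threshold in at least 1 library. The libraries held 32938592 and 32371363 estimated counts in genes.

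The coding ends of Ret, an alternative exon of Gfra1 and a retained intron of Gfra4 mark transcripts compared below, and their sequences are shown first. All 3 genes lie on the minus strand, coordinates are on GRCm38 (mm10), and each sequence is written 5′ to 3′ along the transcript. Ret lies on chromosome 6 (chr6:118151745-118197718), and its 2 transcripts share all coding bases through the 30 lower-case ones below. Capitals mark the coding bases that each transcript has to itself, stop codon included, at chr6:118155256-118155287 for Ret-202 and chr6:118153853-118154010 for Ret-201.
Ret-202: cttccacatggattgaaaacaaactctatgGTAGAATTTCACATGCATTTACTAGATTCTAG
Ret-201: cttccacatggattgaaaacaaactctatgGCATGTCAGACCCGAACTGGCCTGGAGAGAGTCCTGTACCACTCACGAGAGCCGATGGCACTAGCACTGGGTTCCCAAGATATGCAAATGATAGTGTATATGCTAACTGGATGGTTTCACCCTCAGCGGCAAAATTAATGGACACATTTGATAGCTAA
Ret-202 encodes 1073 residues and Ret-201 encodes 1115. The first 1064 residues are shared, which leaves 9 residues of its own to the short form, known as Ret9, and 51 to the long form, known as Ret51. Both forms keep the kinase domain and the shared docking tyrosines, and the long tail adds a tyrosine that is known to bind the adaptor Grb2.

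Gfra1 lies on chromosome 19 (chr19:58235604-58455909). The coding parts of its main transcripts differ by an exon of 15 bases at chr19:58392573-58392587, in capitals below between 30 coding bases of either neighbour. The exon adds 5 codons without a shift of frame, 468 against 463.
Gfra1-201: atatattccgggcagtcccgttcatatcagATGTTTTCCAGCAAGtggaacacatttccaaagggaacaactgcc
Gfra1-203: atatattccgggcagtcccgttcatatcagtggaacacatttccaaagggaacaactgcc
Gfra4 lies on chromosome 2 (chr2:131039632-131043088). Its second intron, 53 bases at chr2:131041342-131041394 and in capitals below, is kept in 4 of its 8 annotated transcripts.
Gfra4-208: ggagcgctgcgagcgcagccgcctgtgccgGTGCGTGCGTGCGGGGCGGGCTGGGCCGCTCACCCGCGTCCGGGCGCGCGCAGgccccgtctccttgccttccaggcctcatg
These letters come from the GENCODE M21 annotation, which is later than the one the authors used, and transcripts were matched by identifier.

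Of the 9 genes 8 were detected, at a TPM of at least 1 in both libraries, and Pspn was the exception. The same threshold was passed by 61.3% of protein-coding genes, whose median level was 4.85 ± 0.0354 TPM (SD, n = 2). Gfra1 was the most abundant member and Ret followed, then by mean TPM Gfra4 and Nrtn, Artn, Gdnf, and finally Gfra2 and Gfra3. The order changed between the libraries for Gfra4 with Nrtn and for Gfra3 with both Gdnf and Gfra2, so these pairs have no order. With all transcripts of a gene counted, the other pairs kept their order in both libraries, although some deposited intervals overlapped. They did so in both libraries for Ret with Gfra4 and in replicate 1 for Artn with Gdnf. In replicate 2 they overlapped for Ret with Nrtn and for Gdnf with Gfra2. The intervals are the authors' bounds on each TPM, and their level is not given in the sources used here.

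**Figure D1:**
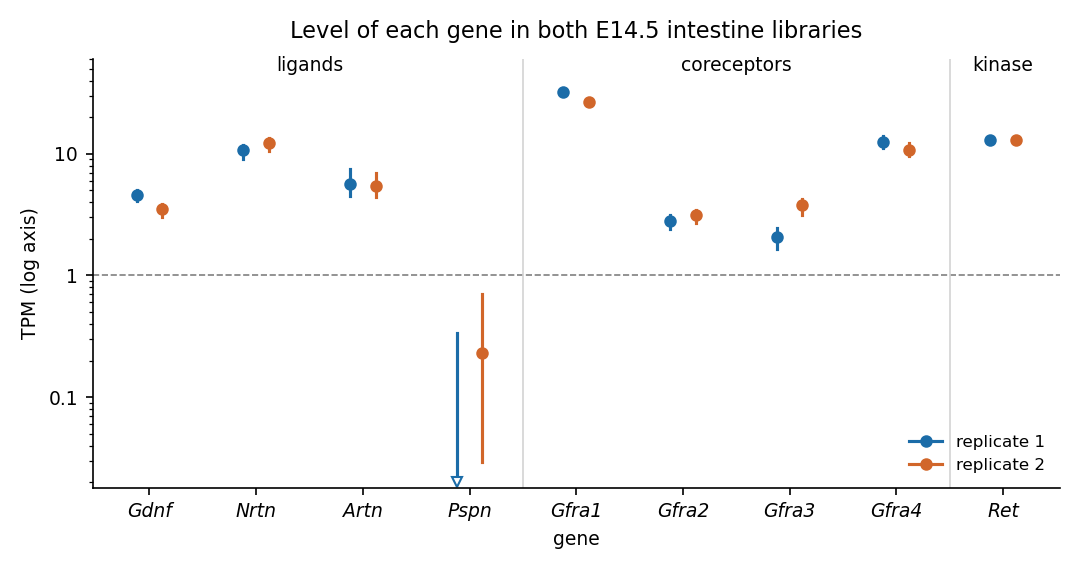
TPM of each family member on a log axis, with a point for each library, a bar for its deposited interval and a dashed line at a TPM of 1. For Pspn in replicate 1, which is at 0, an open triangle stands at the foot of the axis. Its bar ends at the upper deposited bound of 0.336 TPM. Gfra1 lies at the top, at 32.2 and 26.8 TPM, and Pspn is the only gene under the line.

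Among the ligands, with all transcripts counted, Nrtn was the highest and Gdnf, the ligand known to guide enteric crest cells, the lowest of those detected. By protein-coding transcripts alone, Artn had 2.95 TPM in replicate 1 and 3.68 in replicate 2, against 4.62 and 3.51 for Gdnf. The order of Artn and Gdnf then changed between the libraries. Nrtn (chr17:56751325-56757530, minus strand), which is known to support enteric neurons after they form, stood at 10.7 TPM in replicate 1 and 12.2 in replicate 2, a mean of 11.4 ± 1.09 (SD, n = 2). Its level was 2.31 and 3.48 times that of Gdnf in the respective libraries, and it made up 50.9% and 57.1% of the summed level of all 4 ligands. More Nrtn than Gdnf RNA was thus seen in both libraries, but the size of the ratio differed between them. In a whole organ, fewer cells of a type and less RNA per cell cannot be told apart, so these levels say nothing of the amount made by any one cell.

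Gdnf (chr15:7810846-7837575, plus strand) reached 4.62 TPM in replicate 1, with 366 estimated counts, and 3.51 TPM in replicate 2, with 281, a mean of 4.07 ± 0.785 (SD, n = 2). The ratio of counts, replicate 2 to replicate 1, was 0.781, with an exact 95% interval of 0.666 to 0.915 that covers counting error only. Replicate 1 was the higher library, and the deposited intervals of 4.07 to 5.00 and 3.04 to 3.84 did not meet. Gdnf lay above 48.2% of protein-coding genes, near the middle of the distribution.

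Artn (chr4:117926162-117929763, minus strand), best known as a guidance factor for sympathetic axons along blood vessels, had 5.68 and 5.44 TPM, a mean of 5.56 ± 0.170 (SD, n = 2). Its estimated counts went the other way, with 148 in replicate 1 and 174 in replicate 2. Its effective length was set at 1121 bases in replicate 1 and 1361 in replicate 2, and the 405-base transcript Artn-204 was given 7.40 counts in the first and 0 in the second. A direction between libraries therefore could not be read for Artn. Its protein-coding transcripts, Artn-201 and Artn-202, held 51.9% and 67.5% of its TPM. Artn-201 had the largest share, 36.7% and 46.6%, and Artn-202 had 15.3% and 20.9%. The short transcript Artn-203, annotated without a protein, had 29.8% and 32.6% but only 10.4 and 11.0 counts, and Artn-204 had 18.3% and 0%.

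Pspn (chr17:56999457-57000018, minus strand) was not detected, with 0 counts in replicate 1 and 2 counts, or 0.23 TPM, in replicate 2. A limit of 3 counts corresponds to 0.344 and 0.341 TPM, so Pspn was not detectable at this depth. With its values under the limit in both libraries no fold between them is given.

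Gfra1, the coreceptor of Gdnf, dominated the coreceptors. It had 32.2 TPM in replicate 1 and 26.8 in replicate 2, a mean of 29.5 ± 3.85 (SD, n = 2), and lay above 77.5% of protein-coding genes. Its share of the summed coreceptor level was 65.0% and 60.2%. That sum holds the full level of Gfra4, of which protein-coding transcripts made up 5.63% and 2.97%. The deposited intervals of Gfra1, 30.6 to 34.9 and 25.2 to 29.0, did not overlap. As for Gdnf, its level was higher in replicate 1. The ratio of its counts (2814 and 2448) was 0.885, with an exact 95% counting interval of 0.838 to 0.935. Gm16277, annotated as antisense to Gfra1, shares 416 exonic bases with it and had 4.89 and 5.39 TPM from 64.0 and 71.3 counts. The use of strand in counting is not given in the sources used here, so reads in the shared bases cannot be assigned with certainty.

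The main Gfra1 transcript without the 15-base exon had the larger share in both libraries. The main transcripts also differ outside their coding parts, with 11 exons and 4641 bases for Gfra1-201 and 9 exons and 4415 bases for Gfra1-203. Their shares therefore do not rest on reads of the 15-base exon alone. Gfra1-203, which lacks it, held 56.5% and 58.3% of the gene's TPM, and Gfra1-201, which holds it, had 26.9% and 28.8%. Gfra1-204, an 841-base fragment from the 5′ end, had 11.4% and 7.73%. Shares of both main transcripts differed by little between the libraries, with an SD of 1.26 percentage points for Gfra1-203 and 1.33 for Gfra1-201.

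Gfra2 (chr14:70890120-70979838, plus strand), the coreceptor of Nrtn, was low where its ligand was high. It had 2.82 and 3.14 TPM from 220 and 248 counts, a mean of 2.98 ± 0.226 (SD, n = 2), and its deposited intervals met. Gfra1 was 11.4 and 8.52 times as abundant. The level of Gfra2 was 0.264 and 0.257 times that of Nrtn, whereas the level of Gfra1 was 6.97 and 7.62 times that of Gdnf. The preferred pairs thus differed in which partner had more RNA, in both libraries.

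Gfra3, the coreceptor of Artn, had the largest difference between the libraries among the detected members. Its level was 2.07 TPM from 91 counts in replicate 1 and 3.78 TPM from 168 counts in replicate 2, a mean of 2.93 ± 1.21 (SD, n = 2). Deposited intervals of 1.64 to 2.47 and 3.15 to 4.27 did not meet, with replicate 2 the higher, and the ratio of counts was 1.88, with an exact 95% counting interval of 1.45 to 2.45. On the log2(TPM + 1) scale the difference was 0.64, and 8.93% of the 4087 genes with a mean TPM of 1 to 5 differed at least as far in either direction. Relative to Artn with all transcripts counted, Gfra3 stood at 0.364 in replicate 1 and 0.695 in replicate 2. By protein-coding transcripts alone, Artn had 2.95 TPM in replicate 1 and 3.68 in replicate 2. The order of Gfra3 and Artn then changed between the libraries.

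Gfra4, the coreceptor of Pspn, was detected although its ligand was not. Its 344 counts in replicate 1 gave 12.4 TPM and its 310 counts in replicate 2 gave 10.8 TPM, a mean of 11.6 ± 1.17 (SD, n = 2). Nearly all of this came from transcripts annotated as retained introns. Gfra4-208 held 66.5% and 65.6% of the gene's TPM and Gfra4-207 held 27.9% and 31.5%, and both keep the 53-base intron printed above. Transcripts with this intron made up 94.4% and 97.0% of the gene's TPM. Total RNA can also hold unspliced RNA, which was not separated from these transcripts, and its part in their share was not tested. The 6 transcripts annotated as protein-coding added up to 0.70 TPM in replicate 1 and 0.32 in replicate 2, under the threshold in both, and 5 of the 8 transcripts were at 0 in both libraries. By the deposited posterior means, another estimate of level, the protein-coding transcripts reached 1.30 TPM in replicate 1 and 0.88 in replicate 2. By its protein-coding transcripts alone, Gfra4 would thus not count as detected in both libraries under either estimate. The microRNA gene Mir6973b lies within Gfra4 and had 0 counts in both libraries.

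**Figure D2:**
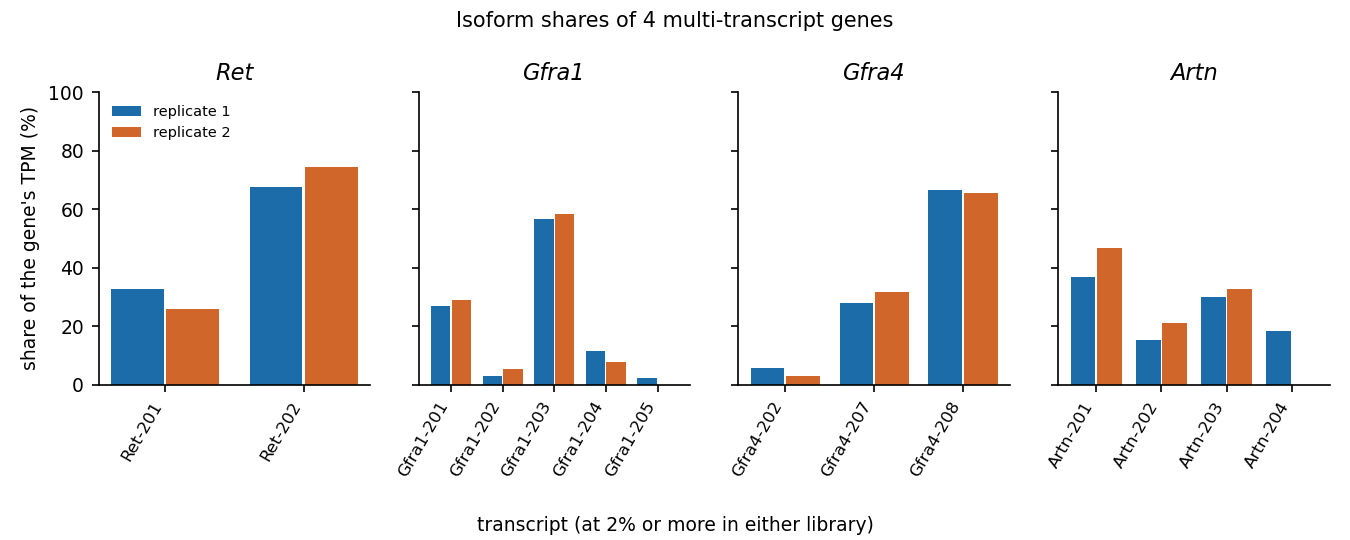
Share of each transcript in the TPM of its gene, in percent, for the 4 members with more than 1 deposited transcript and for transcripts at 2% or more in either library; bars stand for replicate 1 and replicate 2. Ret-202, Gfra1-203, Gfra4-208 and Artn-201 lead their genes in both libraries, while Artn-204 has a bar in replicate 1 only.

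Ret had nearly the same level in both libraries. Its 2060 counts in replicate 1 gave 12.99 TPM and its 2120 counts in replicate 2 gave 13.05 TPM, a mean of 13.02 ± 0.0424 (SD, n = 2). The deposited intervals of 12.1 to 13.3 and 12.2 to 13.3 overlapped almost wholly. The ratio of counts was 1.05, with an exact 95% counting interval of 0.985 to 1.11. Ret lay above 63.2% of protein-coding genes. Gfra1 was 2.48 and 2.05 times as abundant as Ret.

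By the deposited shares, the short form was the major one in both libraries. Ret-202, which encodes Ret9, held 67.5% of Ret TPM in replicate 1 and 74.3% in replicate 2, with counts of 1474 and 1650. Ret-201, which encodes Ret51, held 32.5% and 25.7%, from 586 and 470 counts. The share of Ret-202 was 70.9 ± 4.84% (SD, n = 2), so the libraries differed in isoform share more than in total level. Deposited intervals overlapped between the libraries for each transcript, at 7.65 to 9.34 and 8.54 to 10.3 TPM for Ret-202. The split rests on the authors' transcript models, of 7341 bases for Ret-202 and 6064 for Ret-201. In the annotation used here for the coding ends these are 4497 and 5456 bases. Where the further bases of the deposited models lie is not given in the sources used here. The Ret-202 model may therefore share bases with the end of Ret-201. Reads of unspliced RNA, which total RNA can hold, were not separated from Ret-202, and their part in its share was not tested.

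Among 58 receptor tyrosine kinase genes, Ret was number 25 by mean TPM, and 47 of the 58 were detected, with a list median of 9.82 ± 0.612 TPM (SD, n = 2). Fgfr2, a receptor of mesenchymal FGFs in gut epithelium, led with 91.2 ± 8.12 TPM, before Axl, a receptor of Gas6, with 54.4 ± 1.56 and Ptk7, a pseudokinase of planar polarity, with 43.1 ± 1.67. The genes next above Ret were Ephb3 at 13.7 ± 0.389 and Ror2 at 13.4 ± 1.60, and those next below were Epha4 at 11.9 ± 0.0849 and Igf1r at 10.9 ± 0.368. The value of Ror2 was under that of Ret in replicate 1 and over it in replicate 2, so their order is not fixed.

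**Figure D3:**
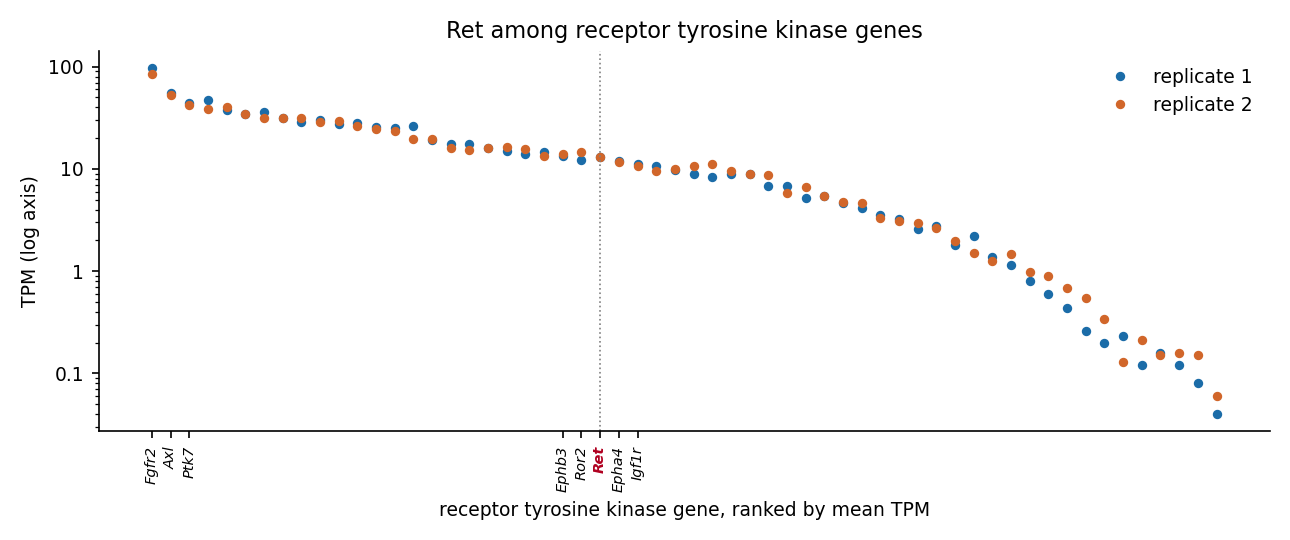
TPM of 58 receptor tyrosine kinase genes on a log axis, ordered from left to right by mean TPM, with a point for each library and names for the leading genes, Ret and its neighbours. The dotted line marks Ret at rank 25, where the points of both libraries coincide, at 12.99 and 13.05 TPM.

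No member passed the rule for a difference between the libraries, which asked for a mean TPM of at least 5, a log2(TPM + 1) difference of at least 1 and deposited intervals apart. Only 5 of the 9 members had the level to be eligible, and Gdnf, Gfra2, Gfra3 and Pspn were below it. Among all 11324 genes at that level the rule was passed by 0.45% with replicate 2 the higher and by 0.0442% with replicate 1 the higher. Log2(TPM + 1) differences, replicate 2 minus replicate 1, ran from -0.32 for Gdnf to 0.64 for Gfra3, and were -0.26 for Gfra1, -0.19 for Gfra4, -0.05 for Artn, 0.01 for Ret, 0.12 for Gfra2 and 0.18 for Nrtn. A second rule, chosen after the values were seen, asked only that the intervals be apart in a gene detected in both libraries. Under it 2 members, Gdnf and Gfra1, were higher in replicate 1 against 14.8% of all 14806 detected genes, and 1 member, Gfra3, was higher in replicate 2 against 6.27%.

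**Figure D4:**
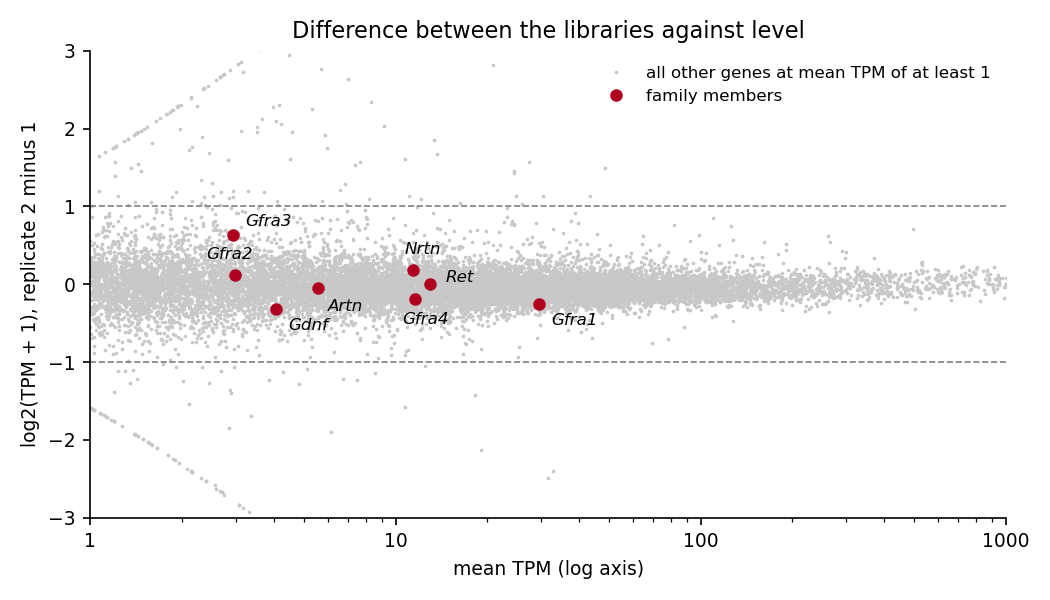
Difference between the libraries in log2(TPM + 1), replicate 2 minus replicate 1, against mean TPM on a log axis, for genes at a mean TPM of at least 1 (grey) and the 8 family members among them (red). Dashed lines mark a difference of 1 either way, and genes beyond a difference of 3 either way, or past the right end of the level axis, are not drawn. All 8 members lie between the lines, and Gfra3 is the highest at 0.64.

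Some marker lists also differed between the libraries. The counts below stand beside all 14806 genes detected in both libraries. Of these, 14.8% had intervals apart with replicate 1 the higher and 6.27% with replicate 2 the higher. Of 13 Ets factors and crest regulators, 5 (among them Hand2, Tlx2, Ednrb and Edn3) had intervals apart with replicate 1 the higher. The same was seen for 3 of 10 enteric neuron markers (among them Elavl4 and Chrna3). None of either list was apart with replicate 2 the higher. The summed neuron markers were 484.4 TPM in replicate 1 and 447.9 in replicate 2. The 8 smooth muscle and mesenchyme markers summed to 5443.5 and 5103.2 TPM, with 5 (Acta2, Myh11, Col3a1, Pdgfra and Foxf1) apart toward replicate 1 and 1 (Col1a1) toward replicate 2. The 6 epithelium markers summed to 1306.5 and 1409.9 TPM, with 4 (Cdh1, Cdx2, Krt8 and Vil1) apart toward replicate 2, and the 8 glia and crest markers summed to 98.6 and 96.4 TPM with none apart. Genes in brackets were named after their values were seen. Gdnf and Gfra1 moved the way of the neuron and mesenchyme markers and Gfra3 the way of the epithelium and pancreas markers, and the part of these tissues in the members' differences was not tested.

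Of 70 genes in 5 lists of binding partners, adaptors, brakes, Ets and crest regulators, and the parallel neurotrophin system, 63 were detected, or 90.0%, beside 61.3% of all protein-coding genes. None passed the rule for a difference between the libraries, for which 55 of the 70 had the level, and with 0.45% and 0.0442% of all eligible genes passing in the respective directions a count of 0 is near the background.

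Other receptors and binding partners of the ligands were detected for 7 of 9 genes, with a list median of 11.1 ± 0.106 TPM (SD, n = 2). Gas1, a GPI-anchored protein related to the coreceptors, was the highest at 91.7 and 94.2 TPM. Ncam1, an adhesion molecule that can bind Gdnf with Gfra1 in place of Ret, had 59.4 and 48.4 TPM, which was 4.58 and 3.71 times the level of Ret. Lrig1, a membrane protein that restrains Ret and other kinases, had 18.8 and 20.6 TPM. Gfral, the coreceptor of the distant relative Gdf15, had 0 in both libraries, and Gdf15 itself had 0.44 and 0.84 TPM.

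Adaptors and effectors that bind Ret or relay its signal were detected for 26 of 28 genes, with a median of 17.4 ± 0.933 TPM. Among the highest were Pdlim7, a scaffold also named Enigma that binds the Ret tail, at 200.5 ± 4.89, and Grb10, an adaptor of several kinases, at 176.1 ± 0.488 (both SD, n = 2). Shc3 and Dok6, adaptors known mainly from neurons, stayed under the threshold, at 0.03 and 0.21 TPM and at 0.35 and 0.28 TPM.

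Genes that act as brakes on Ret signalling were all detected, 12 of 12, with a median of 19.1 ± 0.629 TPM. The ubiquitin ligase Nedd4 led with 595.7 and 525.2 TPM. Ptprf, a receptor tyrosine phosphatase, had 54.8 and 57.9 TPM, and Spry2, a feedback inhibitor of kinase signalling, had 38.1 and 39.2 TPM.

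The Ets factors and crest regulators were detected for 12 of 13 genes, with a median of 15.3 ± 0.735 TPM. The endothelin receptor Ednrb, which acts beside Ret in enteric crest cells, had 150.7 and 129.8 TPM, 11.6 and 9.94 times the level of Ret. Ece1, the enzyme that activates its ligand, had 76.2 and 73.5 TPM, and the crest transcription factor Zeb2 had 37.8 and 34.4. Pax3, a factor of early neural crest, was the single gene not detected, at 0 and 0.01 TPM.

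The neurotrophin system, the other large family of neuron survival factors, lay lower, with 6 of 8 genes detected and a median of 3.28 ± 0.244 TPM. Ngfr, the shared low-affinity receptor and a marker of enteric crest cells, had 12.1 and 13.8 TPM. Ntf3 (neurotrophin-3) had 9.97 and 7.26 TPM. Of its kinase receptors, Ntrk2 was under the threshold in both libraries, at 0.20 and 0.34 TPM, and Ntrk3, named after its values were seen, was above it in both, at 2.59 and 2.95.

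**Figure D5:**
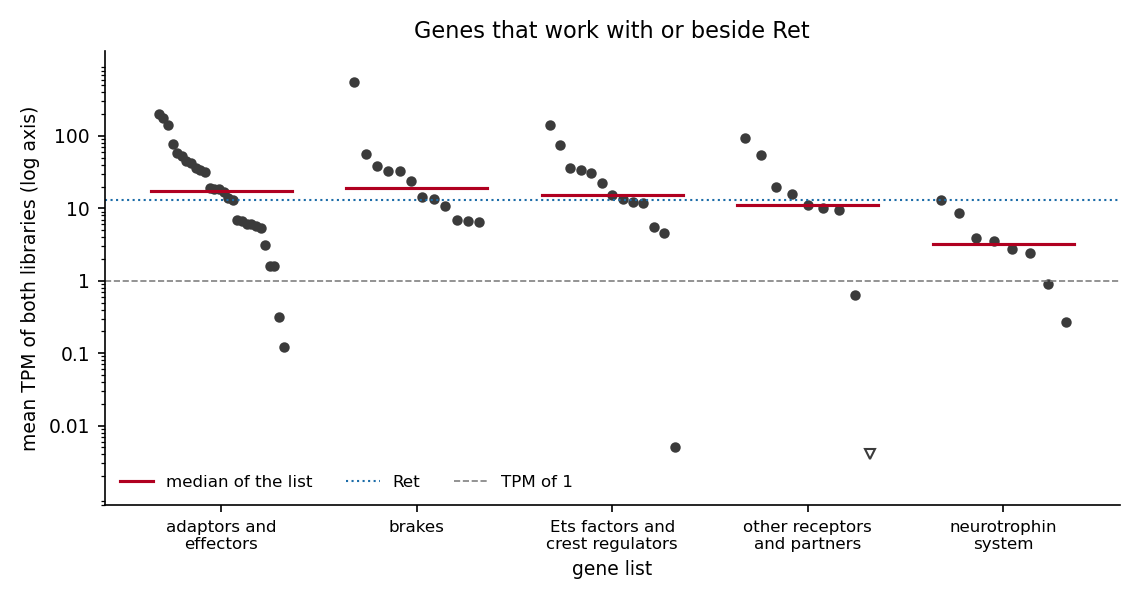
Mean TPM of both libraries for each gene of the 5 pathway lists on a log axis, ordered by level within a list, with the list median in red, Ret as a dotted line and a TPM of 1 as a dashed line. The open triangle marks Gfral, which is at 0. The medians run from 3.28 TPM for the neurotrophin system to 19.1 TPM for the brakes.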

How the data were processed

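Per the notes deposited with the files, alignment was to mm10, the annotation was GENCODE M4 and libraries were not pooled. For the quantification tool, its version and its handling of strand, the entry is: not given in the sources used here. The authors deposited expected counts per gene and transcript, which can hold fractions when a read fits several features. TPM was deposited by the authors over all features, including 96 spike-ins and 26248 features with numeric identifiers, both left out of gene counts here; spike-ins took 9.77% and 10.4% of it. The percent share of each transcript in its gene and the interval bounds of each TPM, taken as scores, were also deposited.

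GENCODE M21 on GRCm38 gave symbols, gene types and positions and matched 42462 of 43346 gene identifiers. Replicates 1 and 2 held 32938592 and 32371363 expected counts in genes. Counting intervals are exact conditional binomial ones, and they and the floor of 3 counts cover counting error only, since amplified reads are not independent molecules. No test was made. The labels separate the libraries only by replicate number and date, while the X- and Y-linked genes differ between them. Members and lists were chosen with earlier results of these data known. The genes named were all 9 members, their transcripts with a share of at least 10% (all for Ret), the 3 highest genes of each list, list members with a TPM below 1 in a library if there were no more than 4, and the 2 kinases on either side of Ret. A few genes chosen this way are not reported here. Likeness of pattern cannot be computed from 2 libraries. The difference rule (pseudocount 1) was tested on simulated data. Scaling alternatives used edgeR 4.0.16 and DESeq2 1.42.0 on rounded expected counts, Python 3.11.15 and R 4.3.3. Some other alternatives were a TPM threshold of 0.5, 2 or 5, a pseudocount of 0.1, posterior mean TPM and leaving out each library.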

Additional observations from a re-analysis of the deposited data

How the results depend on the processing

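No paired analysis was possible because the series has 1 group. The count of 8 detected members held at a TPM of 0.5 or 2, at 10 expected counts, with posterior means and in each library alone, and fell to 5 at a TPM of 5. The count of members that differ was 0 under every planned rule (those with a level filter leave out Gfra3) and 3 when intervals apart at any fold sufficed, a rule added after the values were seen. Without either replicate in turn, the rank of Ret was 24 to 25 and the share of Ret-202 67.5% to 74.3%. Scaling shifted replicate 2 by 0.01 (TMM), 0.00 (DESeq2) and -0.10 (spike-ins) on the log2 scale over all genes. The signs for Gdnf, Nrtn, Gfra1, Gfra2, Gfra3 and Gfra4 were the same under all 6 alternatives, with Gfra3 between 0.57 and 0.84. Artn ran from -0.14 to 0.23 and Ret from -0.09 to 0.07, so neither has a direction. By protein-coding transcripts alone, also added later, Gfra4 fell from 11.6 to 0.51 TPM (1.09 by posterior means) and Artn from 5.56 to 3.32 (3.26). By share of expected counts, Artn-201 held 69.5% in place of 41.6%. Rescaling TPM to nuclear protein-coding genes raised levels, that of Ret to 17.1. Depth limits Pspn and the shares of thin transcripts. With 2 libraries an SD is itself imprecise.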

Other observations

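Markers of other sites where this family is known to act were mostly under the detection threshold. Sympathetic and sensory neurons, whose development depends on Ret and its coreceptors, were represented by 8 marker genes, of which 0 were detected in both libraries, and their summed level was 4.44 TPM in replicate 1 and 3.81 in replicate 2. The highest were Dbh, which makes noradrenaline, at 1.65 and 0.83 TPM, and Th, the first enzyme of catecholamine synthesis, at 1.07 and 0.84. Kidney, where Gdnf drives branching of the ureteric bud, had 1 of 8 markers detected, Wnt11 at 3.03 and 2.81 TPM, and Umod and Slc12a1 were at 0 in both libraries. Nphs1, a podocyte gene, had 0 TPM in replicate 1 and 1.07 in replicate 2, and Pax8 had 0.36 and 0.17. Of the 8 kidney markers, Nphs1 was the only 1 higher in replicate 2, and 5 were higher in replicate 1.

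Schwann cell precursors, a nerve-associated source of some enteric neurons, had 2 of 4 markers detected. Mbp, a myelin gene that other cells also express, had 13.3 and 14.0 TPM, and Cdh19, an adhesion gene of these precursors, had 1.47 and 1.51. Dhh, a hedgehog ligand of these cells, was under the threshold at 0.91 and 0.75 TPM. Among enteric neuron markers Gap43, a growth cone protein, was the highest, at 87.1 and 81.3 TPM, followed by Uchl1 at 84.1 and 77.9 and Tubb3 at 80.8 and 77.1. Among glia and crest markers Fabp7 led with 47.2 and 45.7 TPM, before Erbb3 at 25.5 and 24.4 and Sox10 at 13.3 in both libraries, a level close to that of Ret.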
